A study of Mus musculus with 6 samples.

Results

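The 10 genes described here encode G protein-coupled receptors through which hormones, nerve transmitters and nutrients tune secretion from pancreatic islets: Glp1r, Gipr, Gcgr, Sstr1, Sstr2, Sstr3, Sstr5, Ffar1, Adra2a and Galr1. They were chosen by name, and all 10 were found among the 53670 genes of the deposited table. RNA was sequenced from isolated islets of 6-week-old mice, 3 libraries labelled wild type (WT, Paupar +/+) and 3 labelled knockout (KO, Paupar -/-), where Paupar is a long noncoding RNA gene. The way the KO allele was made, the strain and the animal behind each library: none of this is given in the sources used here. Each p-value therefore measures the spread between these libraries alone. That spread may be technical, except that the KO libraries differ in sex by their RNA, as given below. Libraries held 25733194 to 27285009 gene counts.

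Islet receptors of this kind work through 3 main routes. The receptors for glucagon-like peptide 1 (GLP-1), glucose-dependent insulinotropic polypeptide (GIP) and glucagon belong to class B and couple mainly to the G protein Gs, which activates adenylyl cyclase, raises cyclic AMP and amplifies secretion. The somatostatin, alpha-2A adrenergic and galanin receptors couple mainly to Gi and Go proteins, which lower cyclic AMP and dampen excitability and exocytosis. The fatty acid receptor encoded by Ffar1 couples mainly to Gq, which activates phospholipase C and releases calcium from stores.

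The labels and the cell makeup of the libraries were checked first. Paupar had 111 to 252 counts in the WT libraries and 0 to 4 in the KO libraries. The 12 beta cell markers summed to 218200 to 237600 CPM (reads per 1000000 gene counts, scaled by TMM) in WT and to 282200 to 289300 in KO, and those groups did not overlap. By log2 fold change 9 beta markers were higher and 3 lower in KO, with a median of 0.29. The 10 alpha cell markers summed to 35990 to 46280 CPM in WT and to 32690 to 37810 in KO. Of that sum Gcg alone gave 33710 to 43960 CPM in WT. By log2 fold change 7 alpha markers were lower and 3 higher in KO, with a median of -0.34. The 6 delta cell markers summed to 2553 to 4178 CPM in WT and to 2208 to 3940 in KO. The 14 acinar markers, from the exocrine tissue around islets, ran from 23740 to 75610 CPM in WT and from 18020 to 46740 in KO, lowest in KO replicate 3 and highest in WT replicate 1. The 8 endothelial markers summed to 371.9 to 465.1 CPM in WT and to 531.8 to 557.8 in KO. The 4 Schwann cell markers, at far lower levels, summed to 5.72 to 6.66 CPM in WT and to 2.66 to 3.82 in KO, again without overlap, with a median log2 fold change of -1.41 over the 3 tested. The sums of the pancreatic polypeptide cell, duct, stellate and macrophage markers overlapped between the groups. None of the individual markers passed the test over all genes. None of the markers found in the table was at 0 in all libraries. The female-specific RNA Xist had 0 to 6 counts in WT and 0, 1120 and 862 in KO replicates 1 to 3, and the Y-linked gene Ddx3y had 1316 to 1830 in WT and 1693, 2 and 0 in KO, so sex and genotype can be told apart only through KO replicate 1. In these bulk samples fewer cells of a type and less RNA per cell cannot be told apart.

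Of the 10 receptors, 9 had enough counts to be tested, all but Sstr5, and none of the 9 passed edgeR's quasi-likelihood test at a Benjamini-Hochberg adjusted p below 0.05, a threshold that 0.17% of the 15915 tested genes passed as lower in KO and 0% as higher. At an unadjusted p below 0.05, 3 of the 9 were lower in KO (Gipr, Gcgr and Sstr2), where 9.38% of all tested genes were, and 2 were higher (Galr1 and Ffar1), where 6.99% were. The other 4 did not pass at that level. The genes had been chosen with earlier results of these data known, so their count is a description. In DESeq2 1 receptor passed as lower, Gipr (adjusted p = 0.0223), where 2.75% of tested genes did, and 1 as higher, Galr1 (adjusted p = 0.0244), where 1.31% did. It gave no adjusted p for Sstr2 or Sstr1.

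Of the class B receptors, those for GIP and glucagon had lower means in KO islets and the GLP-1 receptor a higher one, none of them past the adjusted threshold in edgeR. Gipr, the receptor for the gut incretin GIP (chromosome 7, 19742474 to 19751476 in mm9, 14 exons), stood at 33.4, 35.2 and 41.2 CPM in WT (replicates 1, 2 and 3 in this order throughout) and at 26.2, 29.3 and 25.2 in KO. Every KO library was below every WT library. The means were 36.6 ± 4.09 and 26.9 ± 2.15 CPM (SD, n = 3), and edgeR's log2 fold change (log2FC, KO over WT) was -0.45 (SE 0.11, adjusted p = 0.154).

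Gcgr, the glucagon receptor gene, through which beta cells sense glucagon from neighbouring alpha cells (chromosome 11, 120392013 to 120400402), stood at 15.8, 13.1 and 16.5 CPM in WT and at 11.0, 10.8 and 13.9 in KO. The groups overlapped, since KO replicate 3 was above WT replicate 2. Its log2FC was -0.34 (SE 0.14, adjusted p = 0.299). Leaving out 1 library gave -0.47 (SE 0.14, without KO replicate 3) to -0.27 (SE 0.16, without WT replicate 3), and the length and GC offsets also gave -0.27 (SE 0.16). The unadjusted p was 0.0476 with all libraries, and it was 0.14 in both of the latter fits. In GENCODE vM1 the noncoding gene Gm11789 lies on the opposite strand across the start of Gcgr with 0 shared exon bases, and it had 44 to 74 counts.

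Glp1r, the receptor for the incretin GLP-1 and the target of GLP-1 drugs (chromosome 17, 31038785 to 31073455), was at 160, 136 and 148 CPM in WT and at 145, 175 and 221 in KO. KO replicate 3 was the highest library and KO replicate 1 lay within the WT range. The log2FC was 0.28 (SE 0.15, adjusted p = 0.417). It was 0.11 (SE 0.12) without KO replicate 3, 0.42 (SE 0.13) without KO replicate 1 and -0.03 (SE 0.16) with sex as a covariate, a fit in which the genotype effect rests on KO replicate 1 against the WT libraries.

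The makeup of the class B receptors was described as shares of their summed level per kilobase of exon. Glp1r made up 81.3%, 78.7% and 77.2% of the sum in the WT libraries, against 83.7%, 85.1% and 88.4% in KO. Gipr made up 14.2%, 17.1% and 18.1% in WT and 12.7%, 12.0% and 8.48% in KO. Gcgr made up 4.16% to 4.74% in WT and 2.89% to 3.52% in KO. The shares of each of the 3 receptors did not overlap between the groups. They are parts of the same sum and so not 3 separate results, and in CPM the groups overlapped for Glp1r and Gcgr. In counts there were 4.80, 3.86 and 3.60 Glp1r reads for each Gipr read in WT and 5.53, 5.97 and 8.77 in KO. These shares and ratios are descriptions without a test.

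**Figure D1:**
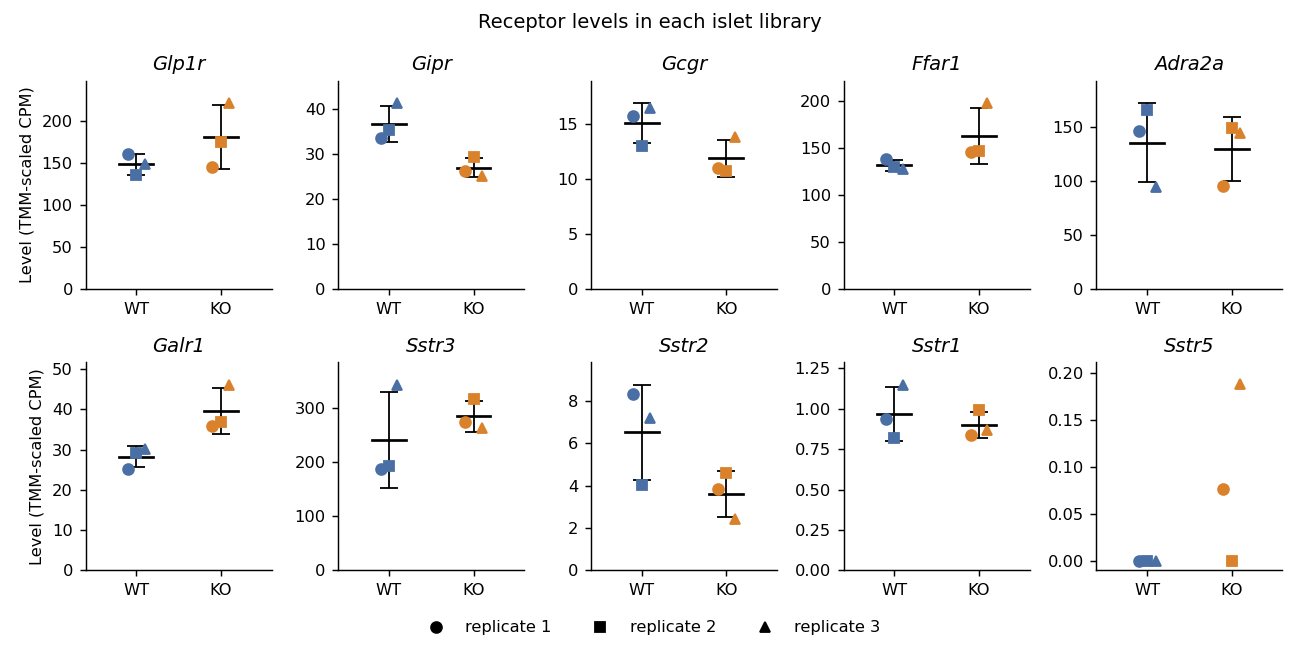
Level of each of the 10 receptors in each library (TMM-scaled CPM, linear axes, 1 panel per gene), WT in blue and KO in orange, with the mean and SD of 3 libraries as bars except for Sstr5, which had 0 to 5 counts. Gipr sits lower and Ffar1 and Galr1 sit higher in all 3 KO libraries than in all 3 WT libraries, and the groups overlap for Glp1r, Gcgr, Adra2a, Sstr1, Sstr2 and Sstr3.

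The somatostatin receptors were dominated by 1 gene, Sstr3, and the largest fold change among the 9 tested receptors was that of Sstr2. Somatostatin from delta cells restrains both alpha and beta cells, and in mouse islets Sstr2 is known as the main such receptor of alpha cells, while Sstr3 is prominent in beta and delta cells. Of the 10 genes, 6 matched RefSeq's promoter table for GRCm38.p6 by symbol: Glp1r, Gcgr, Sstr2, Sstr3, Ffar1 and Adra2a. The 200 bases before the start site are shown for Sstr2 and Sstr3, as family members with log2FC values of opposite sign, and for Gcgr, as the matched gene besides Sstr2 that was lower in KO at an unadjusted p below 0.05. Capitals mark each match to TGACG on either strand, the core of the element bound by cyclic AMP-response factors, and the runs lie at chr11:113619127-113619326 (plus strand), chr15:78544346-78544545 (minus strand) and chr11:120530527-120530726 (plus strand).
Sstr2: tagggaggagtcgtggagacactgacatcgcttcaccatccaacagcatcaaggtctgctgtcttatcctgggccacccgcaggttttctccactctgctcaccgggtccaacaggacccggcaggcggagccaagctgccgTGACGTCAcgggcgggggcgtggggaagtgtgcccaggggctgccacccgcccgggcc
Sstr3: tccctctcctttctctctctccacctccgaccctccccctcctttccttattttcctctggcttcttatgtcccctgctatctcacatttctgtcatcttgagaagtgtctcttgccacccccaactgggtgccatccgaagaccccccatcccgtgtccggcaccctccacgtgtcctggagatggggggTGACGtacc
Gcgr: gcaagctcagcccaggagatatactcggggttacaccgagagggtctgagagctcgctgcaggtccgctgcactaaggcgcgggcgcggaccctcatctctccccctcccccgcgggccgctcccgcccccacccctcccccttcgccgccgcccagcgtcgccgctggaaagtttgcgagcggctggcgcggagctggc
The Sstr2 run holds the full palindrome TGACGTCA, which contains TGACG on both strands and begins 58 bases before the start site. That palindrome occurs in 1.47% of all 32851 windows of the same length in the table, and TGACG on either strand in 15.7%. The Sstr3 run holds TGACG once, 9 bases before the start, and a second Sstr3 window in the table holds none. Adra2a also holds it once, 69 bases before the start, and the windows of Gcgr, Glp1r and Ffar1 have no match. A match is a description of the letters and not a measured site.

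Sstr2 (chromosome 11, 113480656 to 113487319 in mm9) was read 223, 108 and 195 times in the 3 WT libraries and 101, 120 and 64 times in the KO libraries. In CPM these were 8.34, 4.01 and 7.23 against 3.84, 4.58 and 2.41. WT replicate 2 lay among the KO libraries, so the groups overlapped, and KO replicate 3 was the lowest. The log2FC was -0.85 (SE 0.34, adjusted p = 0.284). Leaving out 1 library at a time gave -1.11 (without WT replicate 2) to -0.63 (without KO replicate 3 and without WT replicate 1). The gene Slc39a11 spans Sstr2 on the opposite strand with 0 shared exon bases in GENCODE vM1 and had 347 to 598 counts.

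Sstr3 (chromosome 15, 78367445 to 78374775) was at 187, 192 and 342 CPM in WT and at 274, 315 and 262 in KO. WT replicate 3 was the highest of the 6 libraries, while the other WT libraries were the lowest. The log2FC was 0.24 (SE 0.24, adjusted p = 0.66), and it was 0.60 (SE 0.11, adjusted p = 0.0785) without WT replicate 3. It was 0.09 (SE 0.25) without WT replicate 1 and 0.10 (SE 0.26) without WT replicate 2, so the value depended on which WT library was left out.

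Sstr1 (chromosome 12, 59312759 to 59315431) was barely detected, at 25, 22 and 31 reads for WT against 22, 26 and 23 for KO. Its log2FC was -0.10 (SE 0.26, adjusted p = 0.878). At this depth a difference of the size seen for Gipr would be less than 2 times the SE. Sstr5 (chromosome 17, 25626820 to 25634198) had 0 counts in each WT library, while KO replicates 1 to 3 had 2, 0 and 5. A count of 0 allows up to 3 counts, worth 0.110 to 0.117 CPM in these libraries (counting error only), and no fold is given. The remaining family member, Sstr4, had 1 to 3 counts. The annotation and counting options are not given. Whether they lowered Sstr5, and so the family sum used below, was not tested. Per kilobase of exon, Sstr3 made up 91.4%, 95.4% and 95.6% of the summed level of Sstr1, Sstr2, Sstr3 and Sstr5 in WT and 96.8%, 96.8% and 97.6% in KO, and Sstr2 made up 7.69%, 3.76% and 3.80% in WT and 2.55%, 2.65% and 1.69% in KO. Sstr3 reads were 22.4, 47.7 and 47.3 times those for Sstr2 in WT and 71.3, 68.8 and 108 times in KO.

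For the fatty acid and galanin receptors the lowest KO value lay above the highest WT value, without passing edgeR's test over all genes. Ffar1, the long-chain fatty acid receptor of islets (chromosome 7, 31645587 to 31646489, 1 exon), stood at 138, 129 and 127 CPM in WT and at 145, 146 and 197 in KO. The lowest KO library was close to the highest WT library, and KO replicate 3 stood apart. The log2FC was 0.31 (SE 0.13, adjusted p = 0.292), and without KO replicate 3 it was 0.15 (SE 0.07, adjusted p = 0.452). Without KO replicate 1 it was 0.39 (SE 0.14). With the sex covariate it was also 0.15 (SE 0.17).

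Galr1, a receptor for galanin, a neuropeptide that inhibits insulin release (chromosome 18, 82561888 to 82576169), stood at 25.3, 29.3 and 30.1 CPM in WT and at 35.7, 36.8 and 46.1 in KO. The groups were separated by a gap, and KO replicate 3 was again the highest. The means were 28.2 ± 2.60 and 39.5 ± 5.69 CPM (SD, n = 3), with a log2FC of 0.49 (SE 0.12, adjusted p = 0.165). Leaving out 1 library gave 0.36 (SE 0.10, without KO replicate 3) to 0.56 (SE 0.13, without KO replicate 1), and the value was 0.34 (SE 0.17) with the sex covariate.

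Groups that did not overlap were found for 3 of the 9 tested receptors, or 33.3%, against 23.4% of all tested genes. Gipr was the 1 lower in KO, where 12.1% of genes were, and Ffar1 and Galr1 were the 2 higher, where 11.3% were. KO replicate 3, the library with the lowest acinar marker sum, was the highest of the 6 in Glp1r, Ffar1 and Galr1 and the lowest in Gipr and Sstr2. The part of the acinar share in these values was only measured as a covariate: with the acinar markers in the fit the log2FC values were 0.21 for Glp1r, 0.25 for Ffar1, 0.38 for Galr1, -0.48 for Gipr and -0.72 for Sstr2.

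Adra2a, the alpha-2A adrenergic receptor through which noradrenaline suppresses insulin release (chromosome 19, 54119672 to 54123472, 1 exon), showed a spread that did not follow genotype. It was at 147, 166 and 95.1 CPM in WT and at 95.8, 149 and 144 in KO. WT replicate 3 and KO replicate 1 were low together and the other 4 libraries were high. Its log2FC was -0.07 (SE 0.24, adjusted p = 0.922), and it was -0.50 (SE 0.30) with the sex covariate and 0.11 (SE 0.23) without KO replicate 1.

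**Figure D2:**
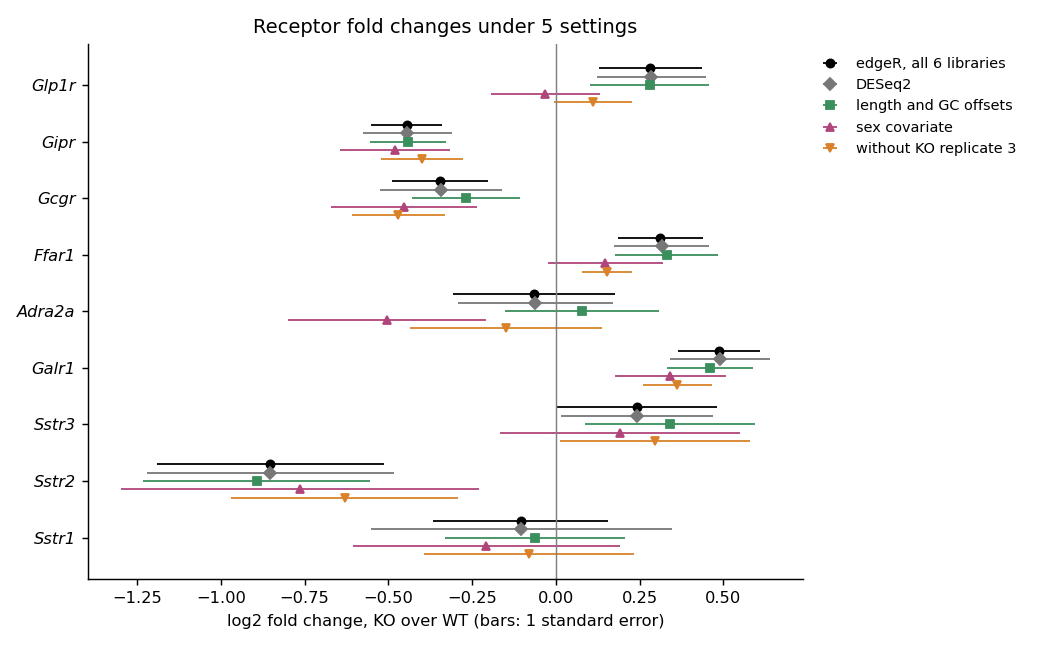
log2 fold change of KO over WT for the 9 tested receptors, with bars of 1 standard error, from edgeR on all 6 libraries and from 4 other settings. Gipr, Gcgr and Sstr2 stay below 0 and Galr1 and Ffar1 above 0 in all 5, while Glp1r is at -0.03 with the sex covariate and Adra2a moves to 0.08 with the length and GC offsets.

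Levels of different genes were compared per kilobase of exon. In WT the order of mean levels, in CPM per kilobase, was Ffar1 (145 ± 6.25, SD, n = 3), Glp1r (98.3 ± 8.11), Sstr3 (61.1 ± 22.5), Adra2a (35.8 ± 9.62), Gipr (20.4 ± 2.28), Galr1 (9.83 ± 0.907), Gcgr (5.53 ± 0.665), Sstr2 (3.12 ± 1.07) and Sstr1 (0.473 ± 0.0820). No neighbours in this order overlapped across the WT libraries. The annotated exon of Ffar1 is 903 bases long, a multiple of the codon length on a single exon and thus probably its coding length alone, so its level per kilobase is an upper estimate if reads from untranslated parts were counted.

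The same order held in KO, with Ffar1 at 180.4 ± 32.9 CPM per kilobase, Glp1r at 120 ± 25.3 and Sstr3 at 72.2 ± 7.13. In KO 1 pair of neighbours was no longer separated: Gipr ran from 14.0 to 16.4 CPM per kilobase and Galr1 from 12.4 to 16.0, whereas in WT Gipr ran from 18.6 to 23.0 and Galr1 from 8.80 to 10.5. In counts there were 0.756, 0.831 and 0.731 Galr1 reads for each Gipr read in WT and 1.36, 1.26 and 1.83 in KO. Galr1 and Gipr each separated the groups in CPM, in opposite directions, so this ratio is not a further result. The summed class B receptors made up 56.8%, 52.2% and 50.1% of class B plus Gi-coupled receptors in WT and 51.2%, 50.2% and 57.5% in KO, and here the groups overlapped.

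Because the marker sums differed between libraries, each receptor was also set against the mean log2 level of the alpha or the beta markers in the same library. Of the 18 ratios none could pass, since 3 against 3 libraries cannot give a two-sided exact permutation p below 0.1, and after Benjamini-Hochberg adjustment the smallest was 0.3. Relative to beta markers, Gipr was lower in KO by 0.63 on the log2 scale, from -5.55 ± 0.17 in WT to -6.18 ± 0.23 in KO (exact permutation p = 0.1), and lower in 3 of 3 KO libraries. Gcgr was lower by 0.53, from -6.80 ± 0.18 to -7.33 ± 0.07 (exact permutation p = 0.1), also without overlap of the groups. Sstr2 was lower by 0.95 with overlapping groups (exact permutation p = 0.2). These ratios also move with the beta markers, whose median log2FC was 0.29, and in CPM the groups overlapped for Gcgr.

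Relative to the same beta markers, Glp1r differed by 0.07 (exact permutation p = 0.6), Ffar1 by 0.10 (exact permutation p = 0.2) and Sstr3 by 0.10 (exact permutation p = 0.8), each less than the SD of 1 of the groups. Galr1 was higher by 0.28, from -5.92 ± 0.14 to -5.64 ± 0.05 (exact permutation p = 0.1), without overlap. Relative to alpha markers, Gipr differed by -0.16 (exact permutation p = 0.4) and Gcgr by -0.06 (exact permutation p = 0.8), and Sstr2 by -0.48 (exact permutation p = 0.3). Galr1 was 0.75 higher relative to alpha markers, Ffar1 0.57 and Glp1r 0.54 (each exact permutation p = 0.1, without overlap). Such ratios move with the alpha markers too, whose median log2FC was -0.34.

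**Figure D3:**
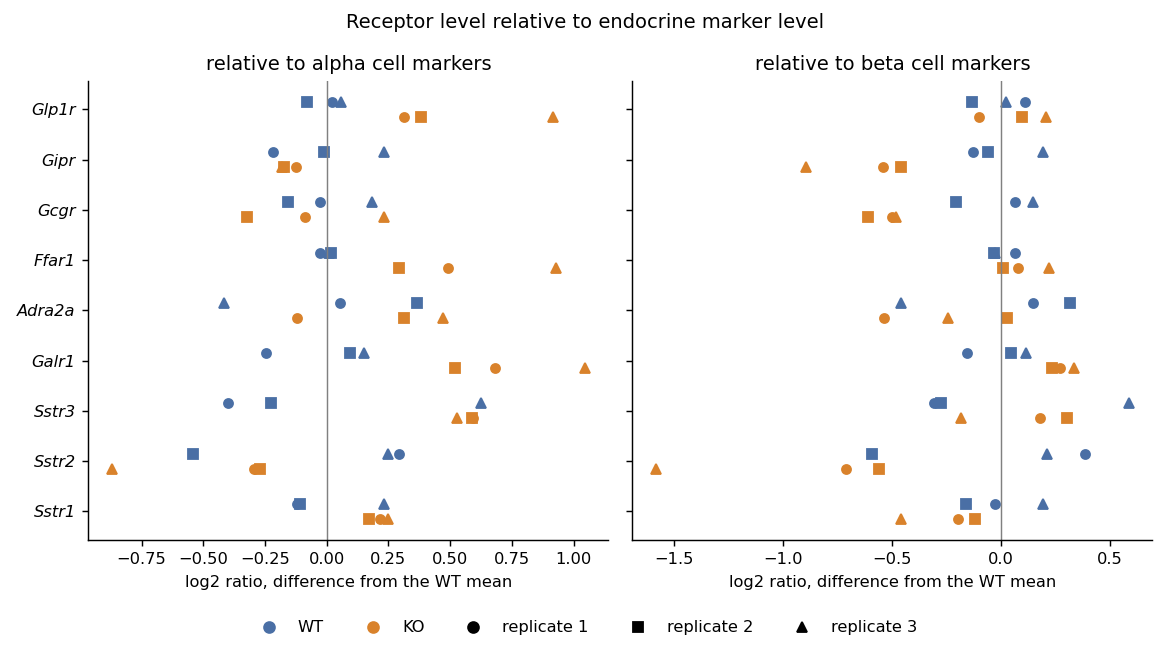
Log2 ratio of each tested receptor to the mean log2 level of alpha cell markers (left) or beta cell markers (right) in each library, drawn as the difference from the WT mean. Relative to beta markers the KO libraries of Gipr and Gcgr lie left of all WT libraries and those of Galr1 right of them, while relative to alpha markers Gipr and Gcgr overlap.

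Other receptors that islets can express gave no call either. Of 38 such genes listed, 37 were in the table under the symbol used and 28 were tested, with a median log2FC of -0.16 against 0.00 over all tested genes. In edgeR 0 passed over all genes, and at an unadjusted p below 0.05, 1 of the 28 was lower and 2 were higher, where 9.38% and 6.99% of all tested genes were, so neither count stands out from all genes. DESeq2 called 0 of the 19 for which it gave an adjusted p. The lower one was Galr2, another galanin receptor, at 3.17 ± 1.21 CPM in WT and 1.68 ± 0.335 in KO (log2FC -0.91, SE 0.35, adjusted p = 0.275). The higher ones were the neuropeptide Y receptor gene Npy1r (0.77, SE 0.29, adjusted p = 0.267) and Calcrl (0.53, SE 0.22, adjusted p = 0.299), a receptor gene of endothelial cells, whose markers were higher in the KO libraries as given above. The part of endothelial RNA in the Calcrl value was not tested. Vipr1, a receptor for vasoactive intestinal peptide, was at 71.3 ± 1.98 and 65.7 ± 1.62 CPM (-0.12, SE 0.06, adjusted p = 0.383).

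The ligands of these receptors were tested where islets express them. Gal, which encodes galanin, stood at 13.5, 9.03 and 6.12 CPM in WT and at 7.31, 5.35 and 4.45 in KO, with overlapping groups and a log2FC of -0.74 (SE 0.32, adjusted p = 0.308). Sst, the somatostatin gene, was at -0.02 (SE 0.27, adjusted p = 0.987) and Gcg, the source of glucagon and GLP-1, at -0.19 (SE 0.21, adjusted p = 0.687). Th, the rate-limiting enzyme of catecholamine synthesis, was at 0.12 (SE 0.41, adjusted p = 0.918). Gip, Cort and Dbh had too few counts to be tested.

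In the signalling arms beneath the receptors 0 genes passed over all genes in edgeR. In DESeq2 4 passed, all lower in KO, where 2.75% of all tested genes were called lower. All 28 listed genes of the Gs and cyclic AMP arm were tested, and their median log2FC was -0.01. Those with an unadjusted p below 0.05 were 6 on the lower and 4 on the higher side, against 9.38% and 6.99% of all tested genes. DESeq2 called 2 of the 28 tested, both lower (Adcy6 and Gnas), against 2.75% of all tested genes. It gave an adjusted p for 21 of the 28. Adcy6 and Gnas also had the smallest p of this arm in edgeR. Adcy6, an adenylyl cyclase, stood at 89.0, 96.7 and 94.2 CPM in WT and at 67.5, 68.3 and 72.2 in KO (log2FC -0.43, SE 0.06, edgeR adjusted p = 0.0840, DESeq2 adjusted p = 2.63e-05). Gnas, the gene of the Gs alpha subunit, stood at 51.6, 43.1 and 51.1 CPM in WT and at 30.1, 34.4 and 31.1 in KO (-0.61, SE 0.10, edgeR adjusted p = 0.0840, DESeq2 adjusted p = 0.000113). In both genes every KO library was below every WT library. Of 17 alternatives to the main fit, DESeq2 alone called either gene. In edgeR with the replicate number as a block, the adjusted p was 0.209 for both.

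With offsets for gene length and GC content in edgeR, log2FC was -0.28 for Adcy6 (SE 0.06, edgeR adjusted p = 0.213). It was -0.33 for Gnas (SE 0.12, edgeR adjusted p = 0.349) and -0.22 for Itpr1 of the Gq arm (SE 0.06, edgeR adjusted p = 0.262). The Gnas locus holds overlapping transcripts on both strands, so its count is uncertain. The phosphodiesterase genes Pde4d (-0.49, SE 0.14) and Pde10a (-0.69, SE 0.23), which encode enzymes that degrade cyclic AMP, were among the 6 lower ones. The remaining 2, named after their values were seen, were the phosphodiesterase gene Pde4b (-0.37, SE 0.15) and the adenylyl cyclase gene Adcy2 (-0.53, SE 0.21), the latter at only 42 to 46 counts in WT and 29 to 31 in KO. The 4 higher ones, named in the same way, were the adenylyl cyclase gene Adcy4 (0.71, SE 0.24) and the regulatory subunit genes of protein kinase A Prkar1b (0.27), Prkar2b (0.37) and Prkar1a (0.27).

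In the Gi arm, 10 of 12 listed genes were tested (median log2FC 0.04), and 1 was lower and 0 were higher at an unadjusted p below 0.05, where 9.38% and 6.99% of all tested genes were. It was Gnaz, a Gi-family alpha subunit gene, at 56.5, 51.9 and 67.7 CPM in WT and 40.2, 36.3 and 45.2 in KO (-0.53, SE 0.13, edgeR adjusted p = 0.152, DESeq2 adjusted p = 0.0109). DESeq2 called Gnaz alone of the 10 tested, as lower, where 2.75% of all tested genes were. It gave an adjusted p for 9 of the 10. Gnai2 was at 0.26 (SE 0.12), Gnao1 at -0.19 (SE 0.10) and Gnai3 at 0.16 (SE 0.10). In the Gq arm all 14 were tested (median -0.17), with 2 lower and 1 higher at that level, near the same shares of all tested genes. The inositol trisphosphate receptor gene Itpr1, a calcium release channel, was at 197, 191 and 182 CPM in WT and 138, 143 and 154 in KO (-0.39, SE 0.07, edgeR adjusted p = 0.106, DESeq2 adjusted p = 0.000236). DESeq2 called Itpr1 alone of the 14, against the same 2.75%, and gave an adjusted p for 13 of the 14. Itpr3 was at -0.31 (SE 0.12), the Gq-family alpha subunit gene Gna11 at 0.17 (SE 0.07) and the phospholipase C gene Plcb1 at -0.21 (SE 0.10).

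Of 15 listed genes for arrestins, receptor kinases, regulators of G protein signalling and receptor activity-modifying proteins, 13 were in the table under the symbol used and tested (median 0.00), of which 1 on the lower and 1 on the higher side had an unadjusted p below 0.05, again near those shares. DESeq2 called 0 of the 11 for which it gave an adjusted p. Rgs9, which speeds the switching off of Gi-family subunits, was at -0.46 (SE 0.14, adjusted p = 0.195). Ramp1, a partner protein of Calcrl, was at 0.51 (SE 0.17, adjusted p = 0.228). Grk5, a receptor kinase gene, was at 0.47 (SE 0.22) and Ramp2 at 0.24 (SE 0.18).

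**Figure D4:**
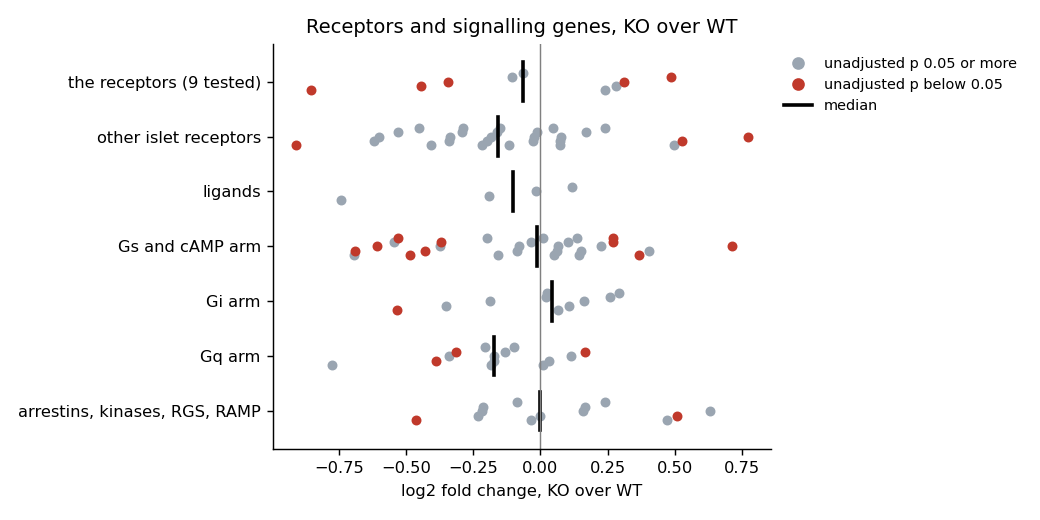
log2 fold change of KO over WT for each tested gene of the receptor set, the other islet receptors, the ligands and the signalling lists, with black bars at the medians and red points at an unadjusted p below 0.05. Medians lie between -0.17 (Gq arm) and 0.04 (Gi arm), and each list holds genes on both sides of 0.

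The genes whose levels followed a receptor most closely over the 6 libraries were sought among 10352 genes with a mean of at least 5 CPM. Between 69 and 242 of them had a Pearson r above 0.9 with a given receptor, so the nearest are named as a description only. For Gipr they were Tbc1d20 (r = 0.989) and Nab2 (0.986), for Gcgr Carmil1 (0.995) and Bbx (0.993), and for Glp1r Zkscan16 (0.988) and Plut (0.987). For Sstr2 the nearest was Syndig1l (0.989), and for Sstr3 they were Por, the reductase partner of cytochrome P450 enzymes (0.989), and Pak4 (0.987). Ffar1 was followed by Slc25a12, a mitochondrial aspartate and glutamate carrier (0.992), and Chn1 (0.989), Adra2a by Cluh (0.983) and Irf7 (0.982), and Galr1 by Ypel5 (0.992) and Hcfc1r1 (0.991). The 6 libraries share the genotype grouping and the differences in cell makeup given above.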

How the data were processed

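Raw read counts per gene, deposited by the authors as whole numbers without normalization, were used for 6 libraries, and 0 columns were left without a sample. Tools named by the submitters' processing notes are HISAT2 2.1.0, HTSeq, CASAVA 1.8.2 and DESeq2, with mm9 as the build. Which annotation, counting options and strand setting were used is not given in the sources used here, so reads of overlapping genes may be lost or mixed. The counts were fitted with edgeR 4.0.16 (R 4.3.3): genes were kept by filterByExpr (15915), TMM scaling, quasi-likelihood F-test of KO against WT, and Benjamini-Hochberg adjustment over all tested genes. Standard errors were taken as the log2 fold change over the root of F. Log2 ratios to markers used a pseudocount of 0.5 CPM. Exonic length and GC came from GENCODE vM1 on mm9, for 93.6% of tested genes, and promoters from RefSeq on GRCm38.p6. Alternatives used DESeq2 1.42.0, limma 3.58.1, other scalings, filters and covariates, smooth length and GC offsets (mgcv 1.9.3), and leaving out each library. Figures used matplotlib 3.10.9 in Python 3.11.15. The receptors, the gene and marker lists, the tests and the alternatives were chosen with earlier results of these data known. The text names every receptor and, per list, the 4 genes with the smallest p and any other it counts. Within groups, libraries differed by more than counting noise (chi-square per degree of freedom 27.1 to 89.4). One gene that the rule for similar patterns selects is not reported here.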

Additional observations from a re-analysis of the deposited data

How the results depend on the processing

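The 9 tested receptors were refitted under up to 17 alternatives. Gipr, Gcgr, Sstr2, Sstr3, Ffar1 and Galr1 kept their direction in all of theirs. Gipr ran from -0.51 to -0.34 and Galr1 from 0.34 to 0.56. The sign turned for Glp1r with the sex covariate (-0.031), for Adra2a with the length and GC offsets (0.077) and, leaving out 1 library, for Sstr1 (-0.21 to 0.046) and Adra2a (-0.26 to 0.11). The cause was not tested. Receptors called were 1 lower and 1 higher with DESeq2, and 0 in both directions in the other alternatives.

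Over all genes, 27 were lower and 0 higher. Lower calls numbered 437 with DESeq2 and 125 at an adjusted p below 0.1. They numbered 0 with limma-voom, with the sex covariate, with the acinar covariate and with the length and GC offsets. Leaving out 1 library gave 0 to 80 lower calls, with 80 without WT replicate 3, 4 without KO replicate 1 and 0 without each of the others. Higher calls numbered 209 with DESeq2, 7 at an adjusted p below 0.1, and 0 to 9 leaving out 1 library. With the replicate number as a block there were 0 lower calls, and Gipr was at -0.44 (adjusted p = 0.227) in that fit. The numbers share no stated source. Same-numbered libraries deviated from their group means with correlations of 0.183, 0.0576 and 0.032, and differently numbered ones with -0.113 to 0.0585. The acinar marker sum fell from replicate 1 to 3 in both groups (75610, 40220 and 23740 CPM in WT, 46740, 33190 and 18020 in KO). Whether the numbers mark a shared batch was not tested.

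Ratios to markers kept their direction in 135 of 144 refits. With summed marker CPM the ratio to beta markers turned for Glp1r (-0.043), Sstr3 (-0.011) and Ffar1 (-0.0095). Leaving out 1 library turned Glp1r to beta markers (-0.0028 to 0.15), Gcgr to alpha markers (-0.21 to 0.072) and Sstr3 to beta markers (-0.056 to 0.39). Sstr1 had 22 to 31 counts per library and Sstr5 had 0 to 5, so little can be said of either. The cause of these low counts was not tested.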
